A study of Mus musculus with 9 samples.

Results

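RNA of mouse spermatids lacking the phosphatase WIP1 was compared between animals with both copies of the kinase gene Atm and animals labelled as carrying 1 intact copy. The members are the 3 arrays whose genotype label reads Wip1-/- ATM +/- and the 3 arrays labelled Wip1-/-, chosen by that label alone, so 6 of the 9 arrays of the series. WIP1 is encoded by Ppm1d, and both groups share the label for its homozygous loss. The remaining 3 arrays are of wild type spermatids, which entered the same fit and are given as reference levels. The cells are labelled spermatid in every sample. The sources used here do not give the mutant alleles, strain, age, number of animals or the way spermatids were isolated. No label ties an array to an animal, and the design text speaks of triplicate hybridization. The p-values below thus cover only the array-to-array spread, which may be technical.

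ATM is a protein kinase that is activated at DNA double-strand breaks and phosphorylates checkpoint and repair proteins, among them BRCA1, CHK2 and p53. WIP1 is a phosphatase, induced by p53 in many cell types, that removes phosphate groups from ATM and from several ATM substrates and so ends the signal. The series title names a role of WIP1 in heterochromatin silencing through ATM, BRCA1 and DNA methylation, and removing 1 copy of Atm from mice without Wip1 is a genetic way to ask whether an effect of Wip1 loss depends on ATM. Spermatids are the haploid cells that follow meiosis. They exchange histones for transition proteins and protamines, and build the acrosome and the tail.

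Each array carried a signal and a detection p-value for 43582 probes. Between 37.9% and 42.0% of probes were detected on an array, and median signals ran from 100.5 to 121.8. Of the genes on the array 10556 were tested, 1 probe each. Levels below are background-corrected and quantile-normalised log2 intensities, and differences are on the same log2 scale, so that a difference of 1 is a doubling of the corrected signal. The defining spermatid genes Prm1, Tnp1, Tnp2, Acrv1, Odf1 and Smcp were detected on all 9 arrays. Prm1, a protamine, had levels of 15.27, 15.23 and 15.35 on the Wip1-/- arrays and 15.23, 15.31 and 15.11 on the arrays labelled Wip1-/- ATM +/-, and Tnp1, a transition protein, was likewise without a call (limma adjusted p = 0.673 and 0.902).

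The probes of the targeted genes did not all move one way. Atm, read by its brightest probe (ILMN_2492491), had log2 levels of 7.88, 7.92 and 7.86 on the Wip1-/- arrays and 6.29, 6.38 and 6.43 on the arrays labelled Wip1-/- ATM +/-. It fell by 1.52 (SE 0.11, limma adjusted p = 2.64e-06 over all genes tested), and the groups did not overlap. On the wild type arrays the same probe stood at 7.08 ± 0.12 (SD, n = 3). A dimmer Atm probe (ILMN_1258206) went the other way, from 6.87, 6.75 and 6.96 to 7.36, 7.13 and 7.29, a rise of 0.40 (SE 0.14, limma adjusted p = 0.0458 over all detected probes). The remaining detected Atm probe (ILMN_2783896) changed by 0.48 without passing the threshold (limma adjusted p = 0.0575). With the detected probes averaged, the difference of Atm was -0.21 (limma adjusted p = 0.156).

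Ppm1d should be lost in both groups by the label. Its brightest probe (ILMN_3133522) read 8.62, 8.86 and 8.58 on the Wip1-/- arrays and 9.51, 9.38 and 9.44 on the arrays labelled Wip1-/- ATM +/-. It was higher by 0.76 in the latter (SE 0.13, limma adjusted p = 0.00083), where it overlapped the wild type arrays (9.13, 9.45 and 9.44). A second Ppm1d probe (ILMN_1226504) had the opposite direction: it was detected on the 3 Wip1-/- arrays and on 0 of the other 6, and was at least 1.41-fold lower on the arrays labelled Wip1-/- ATM +/- (limma adjusted p = 0.000255 over all detected probes). The remaining detected Ppm1d probe (ILMN_1237129) changed by -0.245 without passing the threshold (limma adjusted p = 0.229 over all detected probes). It was detected on 3 Wip1-/- arrays, 2 wild type arrays and 0 arrays labelled Wip1-/- ATM +/-. Averaging the detected probes gave a Ppm1d difference of -0.19 (limma adjusted p = 0.16). The Ppm1d probes thus gave no single answer on a loss that both groups share. The sources used here do not place the probes on Ppm1d or Atm transcripts or their deleted parts. The arrays labelled Wip1-/- ATM +/- are therefore named by their label, or as the heterozygote-labelled arrays, throughout.

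**Figure D1:**
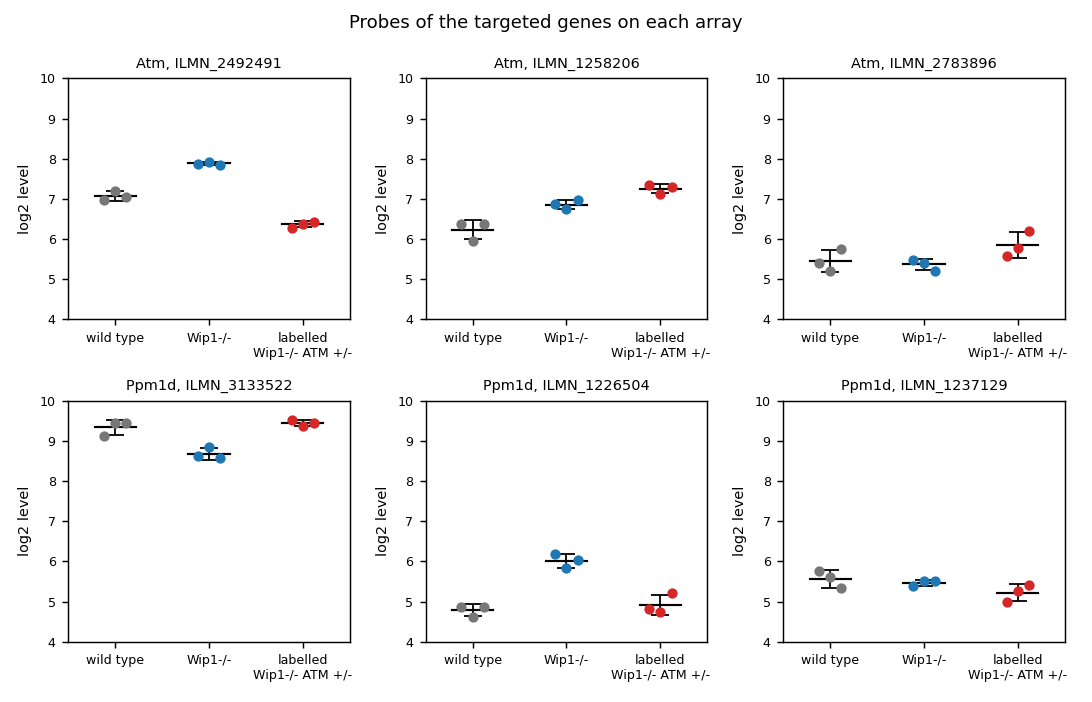
Log2 level of each detected probe of Atm (upper row) and Ppm1d (lower row) on the 9 arrays, 3 per genotype; points are arrays, the long bar is the mean and the whiskers are the SD. The brightest Atm probe is lowest and the brightest Ppm1d probe is as high as in wild type on the heterozygote-labelled arrays, while other probes of each gene have other orders.

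Of 10556 genes 3670 differed between the groups at a limma adjusted p under 0.05, a background of 34.8% against which every count below is read. Of all genes 1767 (16.7%) were higher and 1903 (18.0%) were lower on the heterozygote-labelled arrays. Among those called, 518 rose and 261 fell by more than 2-fold, and 59 changed by more than 4-fold, 35 upward and 24 downward. The median absolute change of called genes was 0.65. The arrays did not overlap for 49.3% of all genes. Across genes, which are not independent replicates, levels correlated at 0.9907 to 0.9943 between arrays of the same group among these 6, and at 0.9654 to 0.969 between the groups. The balance of directions depends on the scaling. The median gene changed by -0.02 after quantile normalization and by -0.21 after median scaling, and 48.1% and 25.8% of called genes were higher. Medians of gene lists below are to be read against these values.

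The genes with the largest rises on the heterozygote-labelled arrays came from many functions. Adgrg7, an adhesion G protein-coupled receptor, was detected on 0 Wip1-/- and 0 wild type arrays and read 8.57, 8.37 and 8.45 on the heterozygote-labelled arrays, at least 8.46-fold higher than Wip1-/- (limma adjusted p = 6.03e-09). Gal3st2, a sulfotransferase acting on galactose, had the same pattern and was at least 7.61-fold higher (limma adjusted p = 3.22e-08). For such a bound the dim group's level on an array was raised to the lowest level of any detected probe where it lay under that. Vav2, a guanine nucleotide exchange factor, rose from 7.95, 7.77 and 7.92 to 11.20, 10.88 and 11.04, an 8.93-fold difference (SE 0.12 on the log2 scale), while its dimmer probe gave 0.85. Klf1, a transcription factor of red cell precursors, rose from 5.72, 5.92 and 5.78 to 8.97, 8.63 and 8.996, and its wild type mean was 5.95. Sct, encoding the hormone secretin, rose by 2.23 (SE 0.11), Kcnab2, a potassium channel subunit, by 2.33 (SE 0.15) and Calml4, a calmodulin-like protein, by 2.27 (SE 0.17). Serpina1b rose by 2.64 (SE 0.20), but it belongs to a cluster of near-identical protease inhibitor genes whose transcripts a probe may not separate.

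Several of the largest rises were genes that were low on the Wip1-/- arrays alone. Tent5b, a poly(A) polymerase, read 6.18, 6.37 and 5.81 on the Wip1-/- arrays, 9.62, 9.60 and 9.41 on the heterozygote-labelled arrays and 8.86, 8.95 and 8.87 in wild type. Sh3bgrl3, of the SH3 domain binding glutamate-rich family, rose by 2.63 (SE 0.12), Mrto4, a ribosome assembly factor, by 2.25 (SE 0.12) and Gpn2, a GTPase, by 2.21 (SE 0.16). Their wild type means were 9.51, 10.40 and 7.37, against Wip1-/- means of 7.60, 8.61 and 5.59 and heterozygote-labelled means of 10.23, 10.86 and 7.80. Each of these 4 genes lies on chromosome 4, as do Cap1, an actin regulator that rose by 2.69 (SE 0.13), and Kcnab2.

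Of the 15 largest falls, 6 ended undetected on all heterozygote-labelled arrays and 8 stayed detected on all 3. Cstdc3, of the cystatin family of protease inhibitors, was detected on all Wip1-/- arrays at 8.91, 8.98 and 8.91 and on none of the heterozygote-labelled arrays, at least 10.6-fold lower (limma adjusted p = 1.64e-07). It is a member of a cluster of similar genes, so the probe may read more than 1 of them. Abhd10, a mitochondrial thioesterase, was lower by at least 3.59 in log2 units (limma adjusted p = 3.11e-08) and Guca2b, encoding uroguanylin, at least 6.32-fold lower (limma adjusted p = 3.22e-08). Haus1, of the augmin complex that nucleates spindle microtubules, fell from 10.62, 11.16 and 10.82 to 6.55, 6.59 and 6.45, with a wild type mean of 11.03. Atg3, an enzyme of autophagy, fell from 9.10, 9.78 and 9.27 to 5.92, 6.79 and 5.87, with a wild type mean of 9.14. Both stayed detected on the heterozygote-labelled arrays, and for both the groups were far apart compared with their spread.

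Spint1, a membrane protease inhibitor, was at least 5.14-fold lower, Gfm2, a mitochondrial translation factor, at least 4.52-fold lower and Sall3, a zinc finger factor, at least 2.89-fold lower. Nkx6-1, a homeobox gene, went from 8.20, 7.99 and 8.01 to a mean of 5.42 (limma adjusted p = 2.86e-07), but was detected on only 1 of the 3 heterozygote-labelled arrays, so the size of its fall is not well measured. The ribosome biogenesis gene Sdad1 fell by 2.49 (SE 0.17) and Nnmt, nicotinamide N-methyltransferase, by 2.19 (SE 0.12). Dctn6, a dynactin subunit, fell by 2.39 (SE 0.13) at its bright probe, while its other probe gave 0.17. In wild type Spint1, Gfm2, Sall3, Nkx6-1, Sdad1 and Nnmt had means of 7.92, 7.66, 6.76, 7.84, 8.35 and 9.37, and Dctn6 of 10.71. Each of these stood closer to its Wip1-/- mean than to its heterozygote-labelled mean. Dazl and Kif23 are given with the germ cell and cell cycle genes.

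**Figure D2:**
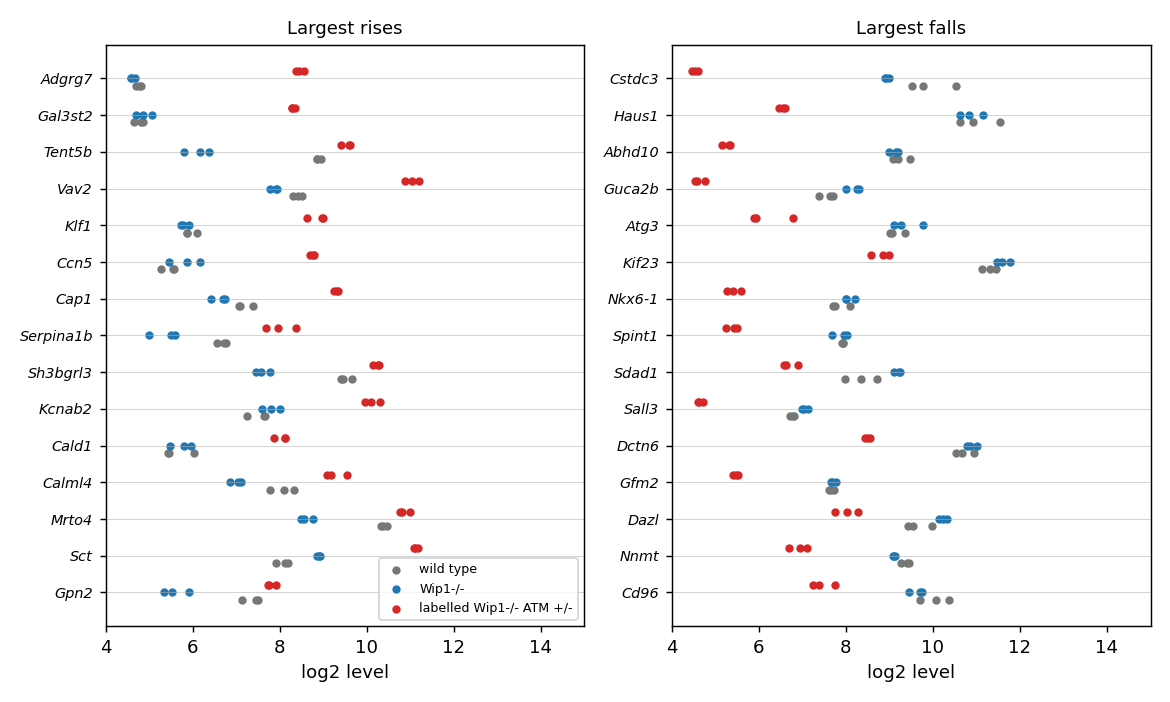
Log2 level (x axis) of the 15 genes with the largest rises (left) and the 15 with the largest falls (right) between Wip1-/- and the heterozygote-labelled arrays, clone symbols left out; each point is 1 array and colours mark the genotype. For Tent5b, Sh3bgrl3, Mrto4 and Gpn2 the Wip1-/- arrays stand below both other genotypes, and for the falls the heterozygote-labelled arrays stand below both.

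Changes of over 4-fold were found for 59 of the 10556 genes tested. Chromosome 4 held 11 of the 59, 1.68% of its 655 tested genes, and chromosome 16 held 7, 1.99% of 351. The highest share on any other chromosome was 0.96%, on chromosome 2. In gene order on chromosome 16, Atg3, the clone gene Gm609, Abhd10 and Cd96, a lymphocyte receptor, followed each other at steps of 2, 3 and 1 tested genes, and all were lower on the heterozygote-labelled arrays. Gm609 fell by 2.19 (SE 0.16), with 0.16 at its other probe, and Cd96 fell by 2.19 (SE 0.18). Cstdc3 lay 30 tested genes before Atg3, and Adgrg7, which rose, 17 tested genes beyond Cd96. On chromosome 4, Tent5b, Gpn2 and Sh3bgrl3 followed each other at steps of 4 and 7 tested genes. The genes around Atm and Ppm1d were also described. Of the 25 tested genes on each side of Atm, on chromosome 9, 6 rose and 13 fell (38%), and 7 changed by more than 2-fold. Ddx10, an RNA helicase that is the second tested gene from Atm, fell by 1.62 (SE 0.19), Dixdc1 by 1.26 (SE 0.19) and Colca2 by 1.24 (SE 0.17), while the clone gene 1810046K07Rik rose by 1.60 (SE 0.25) and Acsbg1, an acyl-CoA synthetase, by 1.36 (SE 0.13). Dixdc1 had a second probe that gave 0.13. Of the 50 genes around Ppm1d, on chromosome 11, 6 rose and 12 fell (36%) and 2 changed by more than 2-fold. Appbp2, the next tested gene to Ppm1d, fell by 0.52 (SE 0.10), Lhx1, a homeobox gene, rose by 1.57 (SE 0.13), Lpo, lactoperoxidase, fell by 1.45 (SE 0.20) and Mpo, myeloperoxidase, rose by 1.00 (SE 0.12). The median absolute change was 0.33 around Atm and 0.35 around Ppm1d, against 0.28 over all genes, and the shares called either way are near the background. Over all 10556 genes 518 rose and 261 fell by more than 2-fold. That share was exceeded around Atm and not around Ppm1d. The shares that fell around both genes were above the 18.0% of all genes.

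Contractile genes of smooth muscle were higher on the heterozygote-labelled arrays. Peritubular myoid cells and vessel walls of the testis are rich in them, and spermatids are not known for them. Of 20 tested genes 17 rose and 1 fell, with a median change of 1.46. Myh11, smooth muscle myosin heavy chain, had levels of 9.07, 8.95 and 8.92 on the Wip1-/- arrays and 11.03, 11.09 and 10.998 on the heterozygote-labelled arrays (difference 2.06, SE 0.10, limma adjusted p = 1.93e-07). Acta2, smooth muscle actin, went from 12.96, 12.79 and 12.89 to 14.01, 14.01 and 14.04, and the groups did not overlap. Cald1, caldesmon, rose by 2.28 (SE 0.18) at its brightest probe, and its 4 dimmer probes gave 0.60, 0.66, 1.00 and 1.42. Des, the intermediate filament desmin, rose by 1.83 (SE 0.22), the tropomyosins Tpm2 and Tpm1 by 1.79 (SE 0.21) and 1.72 (SE 0.15), and Flna, the actin cross-linker filamin A, by 1.64 (SE 0.20). Myl9, the regulatory light chain, rose by 1.60 (SE 0.11), Mylk, the kinase that phosphorylates it, by 0.98 (SE 0.12), Cnn2, a calponin, by 1.61 (SE 0.22) and Actg2, enteric actin, by 0.64 (SE 0.11).

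The regulators of this programme were also measured. Myocd, encoding the coactivator myocardin, rose from 6.09, 6.10 and 5.46 to 7.53, 7.30 and 7.38 (limma adjusted p = 9.48e-05). Its partner Srf, the serum response factor, was the member that fell, by 0.41 (SE 0.11) at its brighter probe, but its other probe rose by 0.50, cyclic loess ended the call and so did leaving out replicate 1 of the heterozygote-labelled arrays. The mean level of the list ran from 7.95 to 8.06 on the Wip1-/- arrays, from 9.20 to 9.25 on the heterozygote-labelled arrays and from 7.50 to 7.55 in wild type. In RNA of a bulk sample, more cells of a type and more RNA per cell cannot be told apart.

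Srf binds the CArG box. The motif, searched on both strands from 250 bases before to 50 after each transcript start in RefSeq promoters of GRCm38.p6, was present for 4 of the 17 smooth muscle genes with a promoter in that table (23.5%), against 1.76% of 8596 tested genes and 1.81% of 27025 genes in all. Of genes called higher 3.24% held it, and of genes called lower 1.04%. A match is a run of letters and does not show binding. The promoters of Myl9 and Cnn2, which rose, and of Srf, which holds a pair of matches, are printed to show the element in its setting, 5′ to 3′ on the strand of the gene, with the CArG box in capitals.
Myl9 (chr2:156775214-156775513, plus strand): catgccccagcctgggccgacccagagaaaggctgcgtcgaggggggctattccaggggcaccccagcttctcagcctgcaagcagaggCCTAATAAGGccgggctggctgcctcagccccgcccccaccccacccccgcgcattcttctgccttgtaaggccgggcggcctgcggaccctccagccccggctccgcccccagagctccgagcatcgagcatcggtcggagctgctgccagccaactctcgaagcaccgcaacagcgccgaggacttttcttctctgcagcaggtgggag
Cnn2 (chr10:79988350-79988649, plus strand): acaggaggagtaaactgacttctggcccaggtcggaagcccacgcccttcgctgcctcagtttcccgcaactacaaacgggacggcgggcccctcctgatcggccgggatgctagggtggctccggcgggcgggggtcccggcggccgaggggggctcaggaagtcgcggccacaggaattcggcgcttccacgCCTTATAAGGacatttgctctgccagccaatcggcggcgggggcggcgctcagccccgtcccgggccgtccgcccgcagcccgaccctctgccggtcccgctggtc
Srf (chr17:46556113-46556412, minus strand): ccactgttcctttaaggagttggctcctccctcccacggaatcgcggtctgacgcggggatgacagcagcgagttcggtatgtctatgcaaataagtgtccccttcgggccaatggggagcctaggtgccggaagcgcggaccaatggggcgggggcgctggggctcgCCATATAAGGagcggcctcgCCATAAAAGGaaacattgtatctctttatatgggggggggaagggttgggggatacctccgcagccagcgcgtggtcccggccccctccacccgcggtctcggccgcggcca
Relative to the transcript start the box begins at -161 in Myl9, at -56 in Cnn2, and at -82 and -62 in Srf.

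Collagens and other matrix genes rose with them. Of 17 collagen chains 13 rose and 0 fell, with a median change of 1.00. All 6 chains of basement membrane collagen IV were higher. Col4a5 went from 6.58, 6.73 and 6.80 to 8.63, 9.03 and 8.70 (difference 2.08, SE 0.20), Col4a1 rose by 1.55 (SE 0.12), Col4a2 by 1.52 (SE 0.14), Col4a3 by 1.19 (SE 0.13), Col4a4 by 1.00 (SE 0.13) and Col4a6 by 0.61 (SE 0.17). The Col4a6 call ended without Wip1-/- replicate 3 and without replicate 1 of the heterozygote-labelled arrays. Col6a1, a chain of collagen VI, rose by 2.03 (SE 0.10) and Col1a1, the main chain of fibrillar collagen I, by 2.01 (SE 0.15). Col1a2, the partner chain of Col1a1, was detected on no Wip1-/- array and was at least 2.11-fold higher. Among 28 other matrix genes 21 rose and 3 fell, with a median change of 1.24.

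Ccn2, a matricellular protein induced by TGF-beta, had levels of 10.30, 10.30 and 10.32 on the Wip1-/- arrays and 12.42, 12.48 and 12.48 on the heterozygote-labelled arrays (difference 2.16, SE 0.11, limma adjusted p = 2.65e-07). Its relative Ccn5 rose by 2.92 (SE 0.17) and Ccn4 by 1.40 (SE 0.13). The proteoglycans Prelp, Bgn and Dcn rose by 2.20 (SE 0.12), 1.24 (SE 0.10) and 1.18 (SE 0.11). Timp3 and Timp2, inhibitors of matrix proteases, rose by 1.90 (SE 0.15) and 1.60 (SE 0.14), though the 2 dimmer Timp3 probes gave 0.15 and 0.46 without a call. Nid1 and Lamb2, of the basement membrane, rose by 1.82 (SE 0.17) and 1.63 (SE 0.16), and Eln, elastin, by 1.51 (SE 0.14). Nid2, whose scanner values were blank, is not in these counts. In the authors' processed table it was lower by 0.92 on the heterozygote-labelled arrays (limma adjusted p = 9.24e-06). The falling members were Fn1, fibronectin, at least 1.62-fold lower and undetected on the heterozygote-labelled arrays (limma adjusted p = 2.31e-05), Tnc, tenascin C, by 0.54 (SE 0.12) and Mgp, matrix Gla protein, by 0.48 (SE 0.13). The Mgp call ended without Wip1-/- replicate 1, without Wip1-/- replicate 2 and without replicate 3 of the heterozygote-labelled arrays. The mean level of the collagen list was 6.98 to 7.06 on the Wip1-/- arrays and 7.96 to 7.99 on the heterozygote-labelled arrays, against 6.35 to 6.54 in wild type.

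Of 15 genes of the TGF-beta pathway 5 rose and 0 fell, with a median change of 0.41 and of 0.13 with median scaling. The called members were the latent TGF-beta binding proteins Ltbp4 and Ltbp3, up by 1.73 (SE 0.14) and 1.52 (SE 0.13), the ligand Bmp4, up by 1.80 (SE 0.15), the receptor Bmpr1a, up by 0.95 (SE 0.20), and the coreceptor Tgfbr3, up by 0.69 (SE 0.15). Bmpr1a had another probe that gave 0.12, and Tgfbr3 had another that fell by 0.52. With the Tgfbr3 probes averaged the change was 0.087 and the call ended (limma adjusted p = 0.6). In the insulin-like growth factor pathway 5 of 9 rose and 1 fell. Igfbp6, a binding protein with preference for IGF2, went from 7.39, 7.25 and 7.24 to 9.49, 9.23 and 9.19, and the growth factor Igf2 from 8.35, 8.15 and 8.25 to 10.03, 9.87 and 9.73 (limma adjusted p = 8.42e-07 and 6.73e-06). Igfbp7, another binding protein, rose by 0.81 (SE 0.13). Igfbp4 fell by 0.73 (SE 0.20), a call that ended without Wip1-/- replicate 1 or 3 and without replicate 2 or 3 of the heterozygote-labelled arrays.

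Markers of testis mesenchyme and fibroblasts counted 8 rises and 1 fall among 13, with a median change of 0.67. Ptch1, the hedgehog receptor and itself a hedgehog target, rose from 5.64, 5.61 and 5.68 to 7.62, 7.68 and 7.38 at its called probe, and its other probe gave 0.22. Pdgfra, the platelet-derived growth factor receptor of stromal cells, rose by 1.59 (SE 0.12), Osr2, a zinc finger factor, by 1.53 (SE 0.13) and Pdpn, podoplanin, by 1.52 (SE 0.15). Gata6, a factor of Sertoli and Leydig cells, was the member that fell, by 1.68 (SE 0.13). The mean levels of the smooth muscle, matrix and mesenchyme lists were higher on every heterozygote-labelled array than on any Wip1-/- array. Within a group the lists did not share 1 order of arrays. The part of other cells in any of these changes was not tested.

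Endothelial genes went the opposite way. Of 14 tested 8 fell and 1 rose, with a median change of -0.52. Cldn5, the tight junction protein of endothelium, fell from 7.58, 7.35 and 7.48 to 5.89, 5.61 and 5.25 (difference -1.89, SE 0.17, limma adjusted p = 1.06e-05), and its wild type mean was 5.34. Ly6c1, a GPI-anchored surface antigen, fell by 1.76 (SE 0.17), Esam, an endothelial adhesion molecule, was at least 2.40-fold lower, Emcn, endomucin, at least 1.12-fold lower, and Tek, the angiopoietin receptor, fell by 0.79 (SE 0.17). Cav1, the caveolae protein that smooth muscle and fibroblasts also make, was the member that rose, by 1.66 (SE 0.15). Kdr, Pecam1 and 4 other endothelial genes on the array were not tested for lack of detection. The mean of the list was 6.88 on each Wip1-/- array, 6.34 to 6.45 on the heterozygote-labelled arrays and 5.91 to 5.94 in wild type. With only genes detected on all 9 arrays or with other settings the count of falls ran from 2 to 10.

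Globin and red cell genes were higher on the heterozygote-labelled arrays. Of 5 tested 4 rose and 0 fell, with a median change of 1.69. Hba-a1, an alpha globin, went from 7.13, 6.87 and 6.88 to 9.09, 9.03 and 8.94, and the beta globins Hbb-bs and Hbb-bt rose by 1.63 (SE 0.15) and 1.69 (SE 0.19). Globin genes share sequence, so their probes may not be independent. Gata1, Alas2 and Slc4a1, of red cell precursors, were on the array and not detected often enough to be tested. Among 17 macrophage and immune markers 1 rose and 6 fell, with a median change of -0.27 and counts of falls between 4 and 9 when single arrays were left out. C1qb, a complement component of macrophages, rose by 1.73 (SE 0.14), while Lyz2, a lysozyme of myeloid cells, fell by 1.39 (SE 0.14) and H2-Eb1, of class II presentation, by 0.51 (SE 0.12). Ptprc, Itgam, Tyrobp, C1qa and Cd163 were not tested for lack of detection.

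Markers of Sertoli and Leydig cells changed in smaller numbers. Of 12 Sertoli cell markers 4 rose and 0 fell, with a median change of 0.37. The called rises were largest for Wnt6, up by 0.96 (SE 0.12), and Vim, vimentin, which mesenchymal cells share, up by 0.84 (SE 0.15). With median scaling 2 of the 12 were called. The Sertoli genes Amh, Fshr, Dhh, Gata4, Kitl and Krt18 were not tested for lack of detection. Of 2 Leydig cell markers tested, Akr1cl rose by 1.64 (SE 0.15) and Insl3, a Leydig hormone, changed by 0.35 without passing the threshold (limma adjusted p = 0.0771). The Leydig genes Star, Cyp11a1 and Cyp17a1 were not tested for lack of detection. The single epididymal marker tested did not pass.

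**Figure D3:**
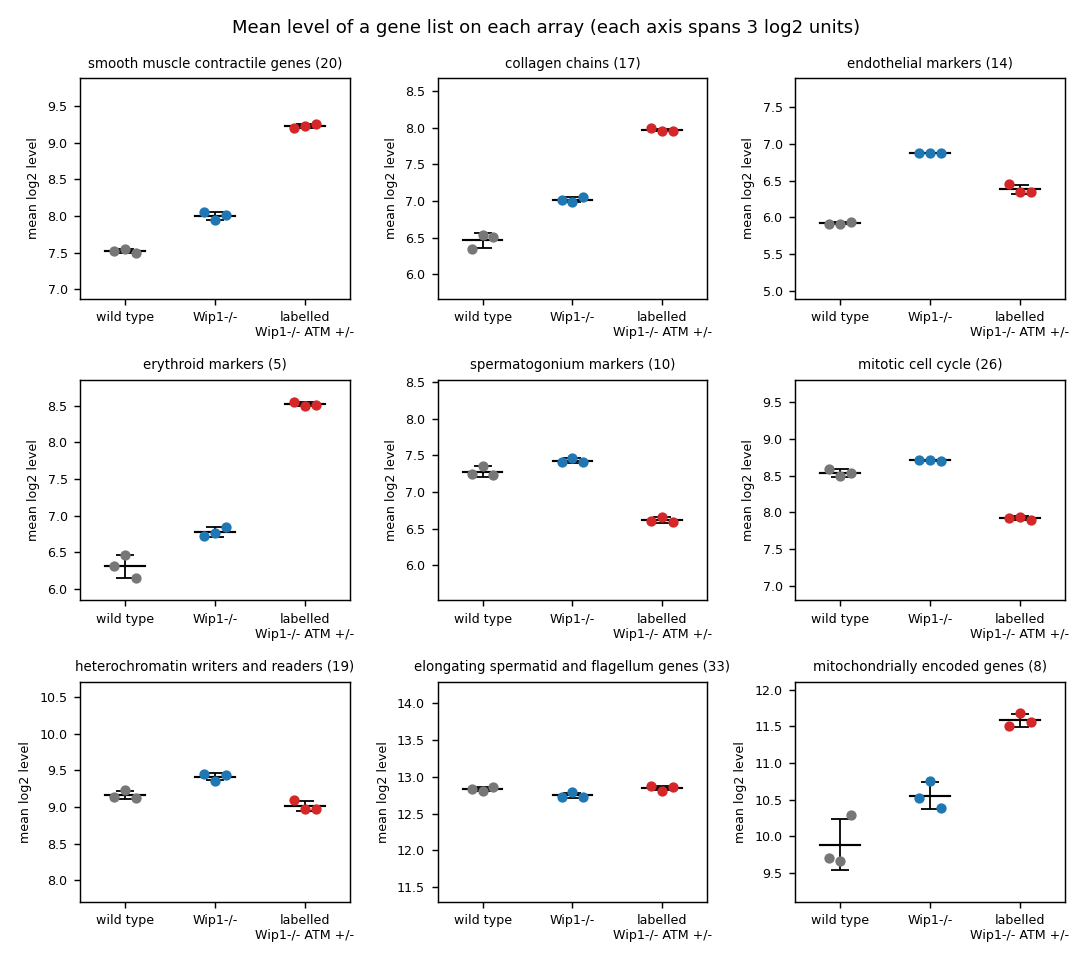
Mean log2 level of 9 gene lists (number of tested genes in brackets) on each array; points are arrays, the long bar is the mean, the whiskers are the SD, and every axis spans 3 log2 units. Smooth muscle, collagen, erythroid and mitochondrially encoded lists are highest on the heterozygote-labelled arrays, spermatogonium and mitotic lists are lowest there, and the elongating spermatid list differs little.

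Spermatogonium markers had lower signals on the heterozygote-labelled arrays. Of 10 spermatogonium markers 8 fell and 0 rose, with a median change of -0.89. Dazl, an RNA-binding protein needed for germ cell development, had levels of 10.22, 10.32 and 10.13 on the Wip1-/- arrays and 7.75, 8.28 and 8.02 on the heterozygote-labelled arrays (difference -2.21, SE 0.17, limma adjusted p = 4.31e-06), and its dimmer probe gave -1.16. Kit, the stem cell factor receptor of differentiating spermatogonia, fell by 1.16 (SE 0.15), Taf7l, a germ cell form of a TFIID subunit, by 1.13 (SE 0.13), Rhox13, a homeobox gene, by 1.19 (SE 0.11), Uchl1, which removes ubiquitin from small adducts, by 0.90 (SE 0.14) and Sohlh1, a bHLH factor, by 0.64 (SE 0.13). Sall4 was at least 1.46-fold lower and undetected on the heterozygote-labelled arrays. Nanos2, Nanos3, Ret, Lin28a and Stra8 were not tested for lack of detection. The list's mean was 7.41 to 7.47 on the Wip1-/- arrays, 6.59 to 6.66 on the heterozygote-labelled arrays and 7.23 to 7.36 in wild type.

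Spermatocyte and meiosis genes counted 7 falls and 2 rises among 19, with a median change of -0.17. Meiob, which binds single-stranded DNA at meiotic breaks, fell from 7.91, 7.81 and 7.83 to 6.36, 6.08 and 6.04. Ccna1, the cyclin of late meiosis, fell by 0.69 (SE 0.13), Spo11, which makes the meiotic breaks, by 0.60 (SE 0.10) and Ybx3, an RNA-binding protein, by 0.52 (SE 0.11). Syce2, of the synaptonemal complex, rose by 1.37 (SE 0.23). Sycp1, of the same structure, rose by 0.83 (SE 0.22), a call that ended with median scaling and without Wip1-/- replicate 3.

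Proliferation genes fell together. Of 26 genes of the mitotic cell cycle 18 fell and 1 rose, with a median change of -0.68. Kif23, a kinesin of cytokinesis, fell from 11.59, 11.76 and 11.46 to 8.85, 8.58 and 8.98 at its bright probe, while its other probes gave -0.91, which was called, and 0.01. Cenpa, the histone H3 variant of centromeres, fell from 8.04, 7.83 and 7.87 to 6.29, 6.03 and 5.87 (limma adjusted p = 6.73e-06). Ccne2, a cyclin of S phase entry, fell by 1.69 (SE 0.23), Mad2l1, of the spindle checkpoint, by 1.36 (SE 0.14), Plk1, a mitotic kinase, by 1.04 (SE 0.12), Aurkb, another, by 0.87 (SE 0.11), and Cdk1, the mitotic cyclin-dependent kinase, by 0.85 (SE 0.12). Of the replicative helicase, Mcm6 fell by 1.26 (SE 0.15) and Mcm5 by 0.99 (SE 0.12), while Mcm2 and Mcm3 were undetected on the heterozygote-labelled arrays and at least 1.92-fold and 1.42-fold lower. Ccnd2, a cyclin of G1, was the member that rose, by 0.95 (SE 0.16). The list's mean was 8.70 to 8.71 on the Wip1-/- arrays, 7.89 to 7.94 on the heterozygote-labelled arrays and 8.49 to 8.59 in wild type. The spermatogonium list fell on the same arrays, and its part in this result was not tested.

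E2F factors drive many replication genes. The letters TTTCCCGC or TTTGGCGC, searched on both strands of the same RefSeq promoters, occurred for 4 of the 22 mitotic genes with a promoter (18.2%), all of them Mcm genes, against 3.09% of tested genes. Of genes called lower 4.47% held them, and of genes called higher 2.26%. The cAMP response element TGACGTCA, the other motif searched on both strands, had a like split, 4.72% of genes called lower and 2.75% of those called higher against 3.61% of tested genes, and was found for 1 of 29 elongating spermatid and flagellum genes (3.45%) and 0 of 20 genes for histone-to-protamine exchange. The promoters of Mcm5 and Mcm6 are printed as the helicase genes with matches before the transcript start whose brightest probes fell. They run 5′ to 3′ on the strand of the gene with the matches in capitals.
Mcm5 (chr8:75109259-75109558, plus strand): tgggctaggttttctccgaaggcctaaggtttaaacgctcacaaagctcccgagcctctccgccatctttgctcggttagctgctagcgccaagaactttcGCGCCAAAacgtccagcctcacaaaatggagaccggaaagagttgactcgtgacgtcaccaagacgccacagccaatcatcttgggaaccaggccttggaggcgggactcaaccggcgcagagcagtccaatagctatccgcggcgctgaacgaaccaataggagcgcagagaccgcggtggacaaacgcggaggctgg
Mcm6 (chr1:128359656-128359955, minus strand): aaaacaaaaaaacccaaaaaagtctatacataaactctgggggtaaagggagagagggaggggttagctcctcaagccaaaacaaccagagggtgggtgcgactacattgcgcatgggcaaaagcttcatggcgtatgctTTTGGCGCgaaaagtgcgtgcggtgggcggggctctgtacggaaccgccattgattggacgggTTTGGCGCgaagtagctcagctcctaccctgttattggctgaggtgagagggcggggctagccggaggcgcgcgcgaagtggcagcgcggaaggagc
Relative to the transcript start the match begins at -149 in Mcm5, where it lies on the other strand, and at -110 and -47 in Mcm6. Mcm7 also holds a match and changed by -0.24 at its brightest probe without passing the threshold (limma adjusted p = 0.308). Its dimmer probe changed by -0.54 and was called (limma adjusted p = 0.00264 over all detected probes). Mcm7 was also called lower with its probes averaged (-0.39, limma adjusted p = 0.0198) and with median scaling (-0.48, limma adjusted p = 0.0327).

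Lists of spermatid genes had small median changes. Of 33 genes of the elongating spermatid and flagellum 7 rose (21.2%) and 4 fell (12.1%), with a median change of 0.05. Of all genes 16.7% rose and 18.0% fell, so the share of this list called either way was near the background. Fscn3, a testis actin bundling protein, went from 9.88, 10.14 and 10.06 to 11.51, 11.47 and 11.32, where its wild type mean was 11.45. Spata3 rose by 0.68 (SE 0.10), Spata18 by 0.65 (SE 0.13) and Hk1, a hexokinase gene with a sperm form, by 0.60 (SE 0.12). Spag6, of the central pair of the axoneme, fell by 0.87 (SE 0.12), Catsper2, a subunit of the sperm calcium channel, by 0.62 (SE 0.11) and Tekt1, a tektin of the axoneme, by 0.53 (SE 0.11). Among 26 acrosome and round spermatid genes 2 rose and 5 fell, with a median change of -0.13. Acrbp, a binding partner of proacrosin, went from 14.01, 14.00 and 13.91 to 12.998, 12.97 and 13.02 at its bright probe, and its dimmer probe gave 0.16. Acrv1, an acrosomal protein, fell by 0.43 (SE 0.10) and Tssk6, a testis-specific kinase, rose by 0.55 (SE 0.11).

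The genes for replacing histones with protamines split evenly, 5 up and 5 down of 22 (22.7% each way), where 16.7% of all genes rose and 18.0% fell. Prm3, a protamine-like gene beside Prm1 and Prm2, rose from 12.01, 11.84 and 11.81 to 13.05, 12.75 and 12.89. Camk4, a kinase that acts on protamine 2, rose by 0.90 (SE 0.11), H1f7, a linker histone of spermatids, by 0.57 (SE 0.10) and Tnp2, a transition protein, by 0.47 (SE 0.10). Their wild type means were 12.33, 7.53, 13.34 and 12.45, and their heterozygote-labelled means 12.90, 7.80, 13.25 and 12.43. The 5 members that fell have several roles. Sirt1, a deacetylase, fell by 1.29 (SE 0.15), Ep400, of a histone exchange complex, by 0.88 (SE 0.12), Psme4, the proteasome activator PA200, by 0.79 (SE 0.14), Kat5, an acetyltransferase, by 0.62 (SE 0.12) and Parp1, a poly(ADP-ribose) polymerase, by 0.34 (SE 0.11). The Parp1 call ended without any 1 of 5 single arrays, all but replicate 1 of the heterozygote-labelled arrays, while its 2 dimmer probes gave -0.87 and -0.47.

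Damage signalling was the pathway the comparison was built on. Of 18 kinases and mediators tested, Atm and Ppm1d included, 5 fell (27.8%) and 1 rose (5.56%). Of all genes 18.0% fell and 16.7% rose, and the share of the list called either way was near their 34.8%. The median change was -0.28, and with median scaling 14 fell. Clspn, claspin, which links ATR to CHK1, fell from 7.29, 7.15 and 7.15 to 5.71, 6.13 and 5.79 at its bright probe and rose by 0.92 at a dim one. Rad1, of the 9-1-1 clamp, and Timeless, of the replication fork, were undetected on the heterozygote-labelled arrays and at least 1.27-fold and 1.33-fold lower. Atr, Chek1, Mdc1, Topbp1 and Nbn were not tested for lack of detection. Of 17 genes of BRCA1 complexes and homologous recombination 7 fell (41.2%) and 2 rose (11.8%), with a median change of -0.26. Brca1 itself was on the array and was not detected often enough to be tested. Rpa3 and Rpa2, of the complex that coats single-stranded DNA, fell by 1.18 (SE 0.13) and 1.26 (SE 0.17), though a dim Rpa2 probe gave 0.51. Uimc1 (RAP80) and Palb2, which bring BRCA1 and BRCA2 to breaks, were at least 1.21-fold and 1.33-fold lower, and Rad54l fell by 0.62 (SE 0.14). Brca2 and Bard1 changed by -0.25 and -0.35 without passing the threshold (limma adjusted p = 0.105 and 0.0731). Babam1, of a BRCA1 complex, rose by 0.61 (SE 0.12), a call that ended with median scaling, and its other probe gave 0.06.

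Targets of p53 did not move one way. Of 20 tested 2 rose (10%) and 6 fell (30%), against 16.7% and 18.0% of all genes, with a median change of -0.12. Ddb2, a damage recognition factor, fell from 8.60, 8.65 and 8.59 to 7.11, 7.32 and 7.03 (difference -1.46, SE 0.13, limma adjusted p = 1.07e-05), and its wild type mean was 8.05. Tnfrsf10b, a death receptor, fell by 0.80 (SE 0.13) and Mdm2, the ubiquitin ligase of p53, by 0.61 (SE 0.14), with -0.47 at its other bright probe and 0.07 at a dim one, and averaging the probes ended the call. Ephx1, an epoxide hydrolase, rose by 1.05 (SE 0.15). Cdkn1a, the p21 gene, changed by -0.17 (limma adjusted p = 0.516).

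The question in the series title concerns DNA methylation and heterochromatin. Of 10 genes tested on the DNA methylation list 0 rose and 3 fell (30%), where 16.7% of all genes rose and 18.0% fell. The share called either way was thus near the 34.8% of all genes. The median change was -0.23, and with median scaling 6 fell. Dnmt1, the maintenance methyltransferase, read 6.53, 6.86 and 7.17 on the Wip1-/- arrays and 6.16, 5.80 and 5.58 on the heterozygote-labelled arrays, without overlap (difference -1.01, SE 0.22, limma adjusted p = 0.00475). Dnmt3b, a de novo methyltransferase, went from 6.74, 6.80 and 6.65 to 5.76, 5.43 and 5.98. Dnmt3l, the cofactor of germ cell methylation, and Uhrf1, the partner of DNMT1, changed by -0.25 and -0.02 without passing the threshold (limma adjusted p = 0.157 and 0.935). Dnmt3a, Tet1, Tet3 and Tdg were not tested for lack of detection.

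Writers and readers of heterochromatin counted 10 falls and 1 rise among 19, with a median change of -0.45, and 17 falls with median scaling. Setdb1, a histone H3 lysine 9 methyltransferase that silences retroelements, fell from 8.88, 8.70 and 8.90 to 7.92, 7.89 and 7.99 (limma adjusted p = 9.99e-05). Suz12 and Ezh2, of the Polycomb complex that methylates histone H3 at lysine 27, fell by 0.85 (SE 0.14) and 0.66 (SE 0.11). Smarcad1, a chromatin remodeler, fell by 0.73 (SE 0.14), Lbr, the lamin B receptor that tethers heterochromatin to the nuclear envelope, by 0.61 (SE 0.13), Kmt5c, a histone H4 lysine 20 methyltransferase, by 0.60 (SE 0.12) and Morc3 by 0.59 (SE 0.12). The rise was that of Ehmt2 (G9a), by 0.36 (SE 0.11), a call that ended with median scaling and without any 1 of 5 single arrays, all but replicate 2 of the heterozygote-labelled arrays. The list's mean was 9.36 to 9.45 on the Wip1-/- arrays, 8.98 to 9.09 on the heterozygote-labelled arrays and 9.13 to 9.23 in wild type.

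The piRNA pathway, which silences transposons in germ cells, had 8 falls and 0 rises among 19, with a median change of -0.29. Ddx4, the germ cell helicase VASA, fell from 10.98, 10.46 and 10.67 to 9.12, 9.13 and 9.05 at its bright probe, with 0.19 at the other. Rnf17, a Tudor domain protein, fell by 1.53 (SE 0.12), Mov10l1, the helicase that starts piRNA processing, by 1.13 (SE 0.14), Tdrkh by 0.58 (SE 0.11) and Piwil2, a PIWI protein, by 0.57 (SE 0.15). Piwil1, the PIWI protein of spermatids, changed by -0.08 (limma adjusted p = 0.616). Among 7 tested genes of the retroelement list, not all of them retroelement-derived, 1 rose (14.3%) and 2 fell (28.6%). Of all genes 16.7% rose and 18.0% fell. Tex19.1, which restrains retrotransposons in germ cells, fell by 0.92 (SE 0.14), and Rtl8a, a gene derived from a retrotransposon, rose by 0.99 (SE 0.13). The spermatogonium and mitotic lists fell on the same arrays. Their part in the results for the heterochromatin, methylation and piRNA genes was not tested.

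**Figure D4:**
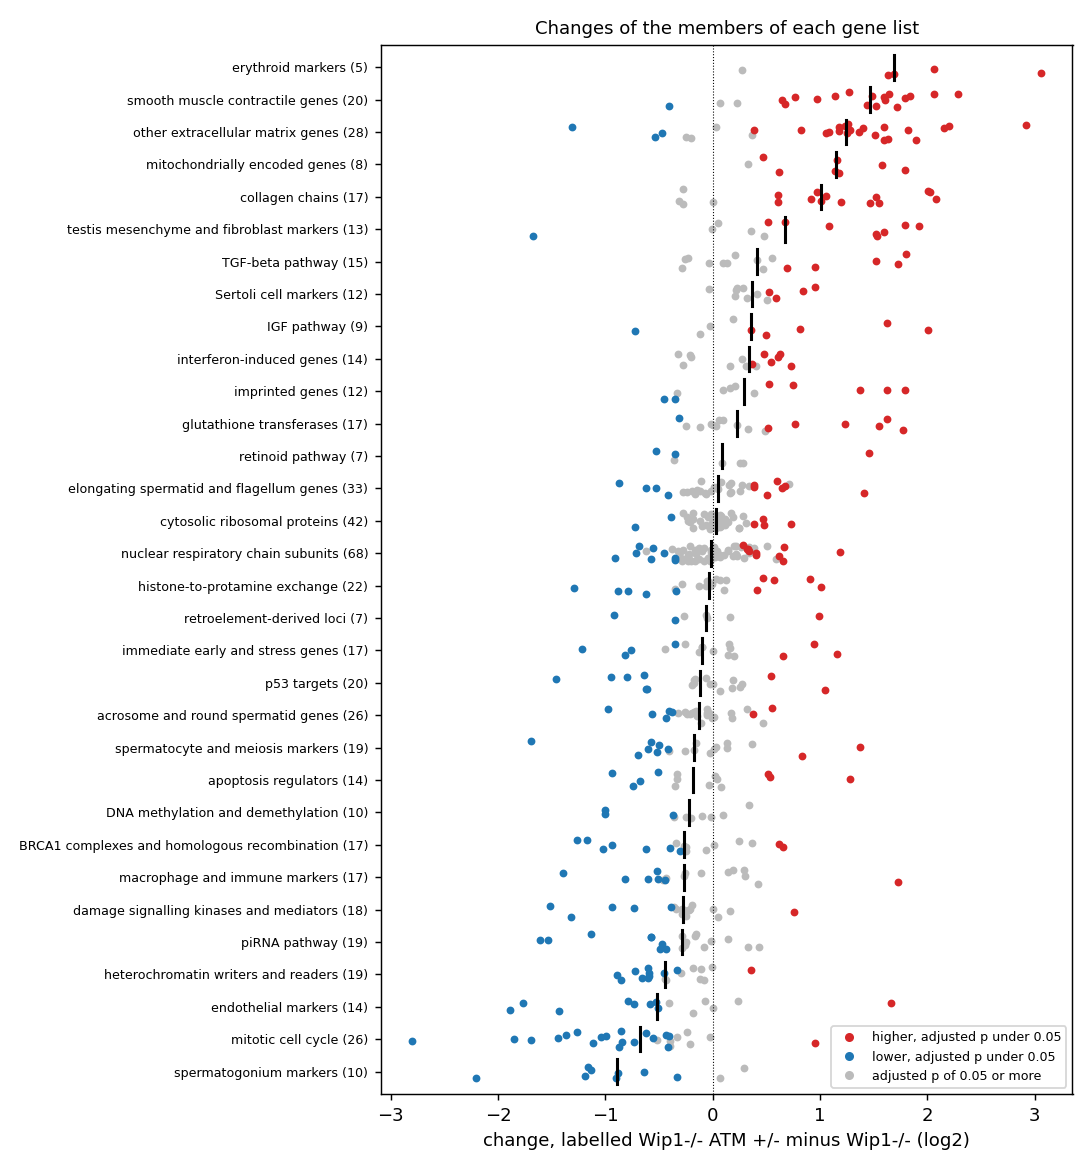
Change of every tested member of the gene lists with at least 5 tested members (number in brackets), in log2 units, heterozygote-labelled minus Wip1-/- arrays; points are genes coloured by the limma call, and black bars are list medians, by which the lists are ordered. Erythroid, smooth muscle and matrix lists stand at the top, and endothelial, mitotic and spermatogonium lists at the bottom.

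The X chromosome stood out among the chromosomes. Of its 341 tested genes 133 (39.0%) were higher and 36 (10.6%) lower on the heterozygote-labelled arrays, and on single autosomes 11.76% to 18.96% of genes were higher. Its median change was 0.32, where autosomes lay between -0.10 and 0.03. The X chromosome is silenced in meiosis, and a set of its genes is transcribed again in spermatids. The share higher rose with level. With all genes split into 3 equal groups by mean over the 9 arrays, 26.5% of 147 dim, 40.8% of 120 middle and 60.8% of 74 bright X genes were higher, against 16.1%, 17.7% and 14.0% of autosomal genes. Relative to autosomes, the median X gene stood at -0.16, -0.14 and -0.16 on the Wip1-/- arrays and at 0.16, 0.24 and 0.20 on the heterozygote-labelled arrays, without overlap, while the wild type arrays spread from -0.13 to 0.10. With median scaling, a check added after seeing the data, 104 X genes were higher and 55 lower.

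Among the X genes that rose were spermatid genes that were low on the Wip1-/- arrays. H2al1m, of a family of short histone H2A variants of spermatids, had levels of 13.40, 13.78 and 13.73 on the Wip1-/- arrays, 14.48, 14.50 and 14.40 on the heterozygote-labelled arrays and 14.34, 14.35 and 14.40 in wild type. H2al1n rose by 0.76 (SE 0.11), H2al3 by 0.84 (SE 0.16) and H2ap by 1.01 (SE 0.14). Members of the Cypt family of the perinuclear theca, Cypt2 and Cypt3, rose by 0.89 (SE 0.18) and 0.49 (SE 0.12). These are multicopy families whose probes may read several copies, so the values are uncertain for a single gene. Satl1 rose by 1.08 (SE 0.12), Tex13a by 0.99 (SE 0.10), Actrt1, an actin-related protein of the sperm head, by 0.82 (SE 0.13), Tspan6, a tetraspanin, by 1.59 (SE 0.21) and Arhgef6, a guanine nucleotide exchange factor, by 1.40 (SE 0.15). Their wild type means of 11.41, 12.39, 10.94, 10.64 and 11.57 lay below the heterozygote-labelled means of 11.88, 12.56, 11.20, 10.85 and 11.99 and above the Wip1-/- means of 10.81, 11.57, 10.38, 9.25 and 10.59.

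The following X genes are examples chosen after their values were seen. Slc38a5, an amino acid transporter, went from 10.13, 10.33 and 10.13 to 12.04, 12.11 and 11.89, with a wild type mean of 8.91. Maged2 rose by 1.55 (SE 0.14) and Armcx2 by 1.26 (SE 0.14), besides Col4a5, Flna and Bgn. Tex13b fell from 7.51, 7.65 and 7.75 to 5.72, 5.28 and 5.71, Xlr4a by 1.52 (SE 0.17) and Mageb4 by 1.38 (SE 0.14), and Magea8 was at least 2.09-fold lower and undetected on the heterozygote-labelled arrays. The part of other cells in the shift of the X chromosome was not tested. On the Y chromosome 2 of 13 genes rose and 0 fell.

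**Figure D5:**
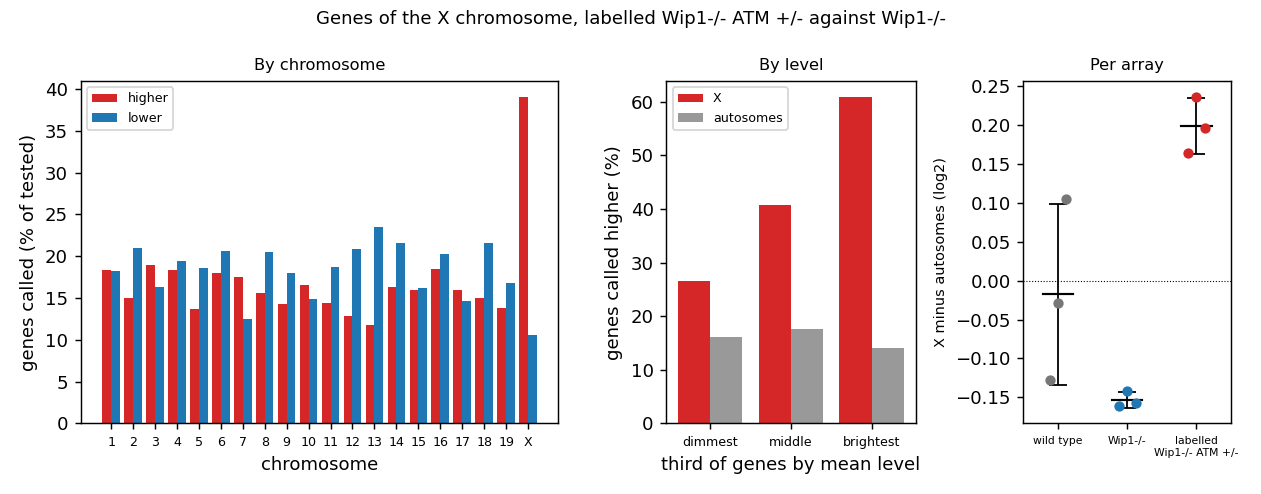
Left, percent of tested genes called higher or lower on each chromosome; middle, percent called higher among X and autosomal genes in 3 equal groups by mean level; right, median deviation of X genes from their 9-array mean minus that of autosomal genes on each array (log2), with mean and SD. The X chromosome has 39.0% of genes higher, its brightest group 60.8%, and the 3 Wip1-/- arrays lie below the 3 heterozygote-labelled arrays.

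Transcripts encoded by mitochondrial DNA were higher on the heterozygote-labelled arrays. Of 8 tested 7 rose and 0 fell, with a median change of 1.15. ATP6, a subunit of ATP synthase, read 11.37, 11.86 and 11.24 on the Wip1-/- arrays and 12.81, 13.37 and 13.01 on the heterozygote-labelled arrays (limma adjusted p = 0.00263). ND4, of complex I, rose by 0.62 (SE 0.15), ND1 by 1.16 (SE 0.28) and ND4L by 1.80 (SE 0.30). ND5 changed by 0.33 (limma adjusted p = 0.291). When single arrays were left out 5 to 7 were called. Mitochondrial transcripts come from long precursors, so these probes are not independent. Nuclear genes of the respiratory chain split, with 10 higher and 8 lower of 68, and cytosolic ribosomal protein genes had 4 higher and 2 lower of 42.

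Of 17 glutathione transferase genes 6 rose and 1 fell. Gstm1 rose from 9.01, 9.06 and 9.01 to 10.80, 10.64 and 10.51 at its bright probe, Mgst2 by 1.78 (SE 0.12), Gstt1 by 1.54 (SE 0.15) and Gstm2 by 1.23 (SE 0.11), though a dim Gstm1 probe gave -0.09. Of 12 imprinted genes 5 rose and 2 fell. Ndn, necdin, which is expressed from the paternal copy, rose from 7.65, 7.67 and 7.31 to 9.34, 9.35 and 9.33, Impact, likewise paternal, by 1.37 (SE 0.14), and Igf2 is given above. Interferon-induced genes counted 6 rises and 0 falls of 14 and 3 rises and 1 fall with median scaling. Bst2, tetherin, rose by 0.73 (SE 0.17) and Isg20, an exonuclease, by 0.60 (SE 0.12). In the retinoid pathway Aldh1a1, which makes retinoic acid, rose by 1.45 (SE 0.26) and Rdh11, a retinol dehydrogenase, fell by 0.53 (SE 0.12), among 1 rise and 2 falls of 7.

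Regulators of cell death and early response genes moved in both directions. Of 14 apoptosis genes 3 rose and 4 fell. Bok, a pro-apoptotic BCL2 relative, rose by 1.28 (SE 0.11), and Apaf1, the scaffold of the apoptosome, was at least 1.47-fold lower and undetected on the heterozygote-labelled arrays. Of 17 immediate early and stress genes 3 rose and 4 fell. Egr1 fell from 8.19, 8.12 and 8.10 to 7.24, 7.27 and 7.44, Fos was at least 1.33-fold lower and undetected, and Hspa1b, an inducible HSP70, fell by 0.76 (SE 0.12). Klf6 rose by 0.94 (SE 0.12) and Hspb1, a small heat shock protein of muscle, by 1.16 (SE 0.13).

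Probes of the same gene did not always agree. In 90 genes, Atm, Ppm1d, Clspn, Srf and Tgfbr3 among them, detected probes were called in opposite directions. The largest gaps were those of Necap2, an endocytosis gene (2.68 at a dim probe and -0.42 at the brighter one), Ttc23 (1.52 and -1.37), Riox2, a ribosomal oxygenase (1.62 and -1.07), Rbpms, an RNA-binding protein of smooth muscle (1.61 and -0.86), and Golm2 (1.23 and -1.10), by the highest and the lowest called probe of each. The direction of these genes therefore depends on the probe taken. The call at the brighter Necap2 probe also ended with cyclic loess, without the detection filter, with only the 6 arrays compared and on leaving out either Wip1-/- replicate 1 or 2 or replicate 1 or 2 of the heterozygote-labelled arrays (limma adjusted p from 0.0508 to 0.138). Averaging its probes ended the Golm2 call.

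Other named genes had further probes that were called the same way with a change of another size. Such probes gave -0.63 for Ddb2, -0.72 for Rnf17, -0.50 for Kit, 0.62 for Ltbp3, 1.09 for Ltbp4, 1.67 for Mylk, 2.00 for Col4a4 and 1.54 for Spata3. Further probes of Ezh2, Sohlh1, Tekt1 and Ybx3 gave -0.24, -0.37, -0.19 and -0.11 without a call. Some named genes that fell had another probe blank as scanned, which was fitted from the authors' processed table. Such probes of Psme4, Lyz2, Spo11 and Tnfrsf10b gave -0.07, -0.11, -0.19 and -0.16 without a call. That of Psme4 was bright, with a Wip1-/- mean of 13.80. Those of Kif23 and Rdh11 gave -1.15 and -0.29 and were called. Where the dimmer group was only partly detected, its mean rests in part on levels not above background. The dimmer group was detected on 1 of 3 arrays for Bmp4, Bst2, Col4a6, Ly6c1 and Tek, and on 2 of 3 for Bmpr1a, Cldn5, Dnmt3b, Gm609, Gpn2, Lyz2, Serpina1b and Tex13b.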

How the data were processed

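RNA of spermatids was labelled as biotin cRNA and hybridised to 9 Illumina mouse arrays, 3 per genotype, grouped by the genotype label. The deposited scanner table holds a non-normalized intensity and a detection p-value per probe and array, per the file headers. A missing decimal point in 895 detection p-values was restored by reading them as thousandths. The authors' processed table holds linear intensities that share 1 distribution over the arrays, and the sources used here do not state how it was made. Of 45279 probes, 1697 were blank in the scanner table and not used in the comparison. Of all probes 34885 had 1 gene symbol in the platform annotation, 18 several and 10376 none.

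From the deposited intensity values, log2 levels were computed with limma 3.58.1 in R 4.3.3 (neqc, offset 16, quantile normalization). Probes detected at a p-value under 0.05 on at least 3 arrays were kept (18867), and the brightest probe stood for each gene. The contrast was fitted with lmFit and eBayes on all 9 arrays, with Benjamini-Hochberg adjustment at 0.05. The fit alone was run on simulated normalised values with 200 changed genes and independent noise. That setting covers neither the normalization nor as many differing genes as were called here. The number of arrays limits the precision. Named were Atm, Ppm1d, the 15 largest rises and falls without overlap (clone symbols left out), list members, the larger changes among their 25 neighbours a side, and genes whose probes disagree. X chromosome genes were chosen after their values were seen. The comparison and gene lists were chosen with earlier results of these data known. Alternatives covered background, offset, normalization, filter, probe choice, the processed table, arrays in the fit, a replicate block and leaving out each array. Gene order and promoters were those of RefSeq, GRCm38.p6.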

Additional observations from a re-analysis of the deposited data

Results flagged for a closer look

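For 10 genes the scanner table was blank at their probe and no other probe of the gene was tested, but the authors' processed table, log2-transformed and fitted with the same limma contrast, gave a call and a change of more than 2-fold. Of these, 7 were higher on the heterozygote-labelled arrays. Cyp26b1, which degrades retinoic acid, differed by 1.45, Slc48a1, a heme transporter, by 1.43, and Rhbdl2, a rhomboid protease, by 1.37. Tcf21, a transcription factor of mesenchyme, differed by 1.11, Prf1, perforin, by 1.04, Siglech by 1.01 and the locus Gm15107 by 1.255. The 3 lower genes were Spata22, needed in meiosis (-1.18), Cep72, a centrosomal protein (-1.17), and Mis18a, which loads CENP-A at centromeres (-1.04). Among 19569 probes fitted from the processed values 35.8% were called, and 36.4% of the 866 that were blank as scanned. Groups of 3 arrays were not examined for single outlying arrays.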

How the results depend on the processing

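Of 221 called genes named here, 204 kept their call and direction under every one of the 17 other settings that tested them. With median scaling 3542 genes were lower in place of 1903 and 1231 higher in place of 1767, and 55 X genes were lower in place of 36. The total of called genes ran from 2895 to 4773 over all of them. With the detected probes of a gene averaged, Atm stood at -0.211 (limma adjusted p = 0.156) and Ppm1d reversed to -0.192 (limma adjusted p = 0.16). Under the same setting Srf stood at 0.044, Necap2 at 1.13, Ttc23 at 0.073, Riox2 at 0.275 and Rbpms at 0.256, opposite to their brightest probes. When single arrays were left out, 2895 to 3233 genes were called, 1471 to 1602 higher and 1396 to 1646 lower, Atm lay between -1.548 and -1.477 and Ppm1d between 0.707 and 0.847. Of the 34 gene lists, 6 had a median that changed sign under an alternative.

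Replicate numbers are shared by the groups. Same-numbered arrays had correlations of their deviations from the group means of 0.272, 0.16 and 0.046. Differently numbered arrays had correlations from -0.23 to 0.062. Each heterozygote-labelled array thus correlated most with the Wip1-/- array of its number. The main fit did not use the numbers as pairs, and what the shared numbers stand for was not tested. With the replicate number as a block 3491 genes were called, 1718 higher and 1773 lower, and the adjusted p was 3.19e-05 for Atm and 0.00239 for Ppm1d. Levels near background limit the dim genes, of which 209 called genes were detected on none of the heterozygote-labelled arrays and 86 on none of the Wip1-/- arrays.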
